A study of Mus musculus with 78 samples.

Results

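The 10 genes described here act in blood clotting and in the removal of clots, and the liver makes the plasma proteins they encode. FGA, FGB and FGG encode the chains of fibrinogen, F2 encodes prothrombin, F5, F11 and F12 encode coagulation factors V, XI and XII, KLKB1 encodes plasma prekallikrein, KNG1 encodes kininogen and PLG encodes plasminogen. They were counted with TempO-Seq, in which pairs of probes that bind next to each other on a transcript are ligated and sequenced, in fixed and paraffin-embedded liver of male B6C3F1 mice. The mice drank 3.5 g/L dichloroacetate (DCA), a by-product of water disinfection, from 4 weeks of age. S1 mice drank DCA for 10 weeks, S2 mice for 32 weeks, S3 mice for 57 weeks and Direct-78 mice for 78 weeks. The number after the hyphen in a group's name is the week of collection, up to which S1, S2 and S3 mice drank water after their exposure. Control groups of the same week drank water throughout and are the age-matched controls.

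Each of the 13 groups had 6 labelled mice, and the 68 of 78 libraries kept by the authors were compared. They left 4 mice in Control-10, S2-78 and S3-78, 5 in S3-57, 3 in Direct-78 and 6 in each other group, 1 library per mouse. Total counts ran from 541245 to 4285848 per kept library, with a median of 2162678. In 4 comparisons the totals of treated and control libraries did not overlap, and in these a change with treatment and a change with depth cannot be told apart from the design alone. Direct-78 libraries held 541245 to 699825 counts against 2098777 to 4285848 in Control-78, and S3-78 libraries held 1154431 to 1936370. S3-57 libraries held 1123317 to 2030701 counts against 2223516 to 4153377 in Control-57, while S1-32 libraries held 2979117 to 3914572 against 721372 to 2731045 in Control-32. All 10 members were among the 2205 genes tested of 2755 in the count table. Levels are given as counts per 1000000 of a library's total count times its TMM factor (CPM), which compare a gene between libraries and not with another gene, since the assay attenuates highly abundant transcripts by design. The counts carry no molecular identifiers, so limits set by low counts cover counting error only.

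Clotting ends when thrombin, cut from prothrombin, turns fibrinogen into fibrin, and factor V is the cofactor of the enzyme complex that makes thrombin. Factor XII, prekallikrein, kininogen and factor XI form the contact system, which starts clotting on charged surfaces and releases bradykinin from kininogen. Plasmin, cut from plasminogen, dissolves fibrin. Hepatocytes secrete these proteins, and fibrinogen is also an acute phase protein whose genes respond to interleukin-6 through STAT3 and C/EBP factors, while HNF1 acts on them in the resting liver.

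On the GRCm38 build, the fibrinogen genes form a cluster on chromosome 3. FGG (ENSMUSG00000033860) lies at 83007724 to 83015049, FGA (ENSMUSG00000028001) at 83026076 to 83033627, and FGB (ENSMUSG00000033831), on the minus strand, at 83040141 to 83049863. They are 11026 and 6513 bases apart. F11 (ENSMUSG00000031645, 45241174 to 45262031) and KLKB1 (ENSMUSG00000109764, 45266689 to 45294859) are homologous neighbours on chromosome 8, with 4657 bases between them. F5 (ENSMUSG00000026579) is on chromosome 1 at 164151838 to 164220277, F2 (ENSMUSG00000027249) on chromosome 2 at 91625320 to 91636414, and F12 (ENSMUSG00000021492) on chromosome 13 at 55417958 to 55426793. KNG1 (ENSMUSG00000022875) is on chromosome 16 at 23057865 to 23082078 and PLG (ENSMUSG00000059481) on chromosome 17 at 12378608 to 12419385.

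RefSeq promoters, 250 bases before to 50 bases after the start that RefSeq gives, were matched for 8 of the 10 members on build GRCm38.p6, all but KNG1 and PLG. The RefSeq start of FGA lies 77 bases after the GENCODE start given above, and those of FGB and FGG are the same in both. Those of the fibrinogen genes are shown because the 3 chains changed unequally. They are the plus strand of chr3:83025903-83026202 for FGA, the minus strand of chr3:83049814-83050113 for FGB and the plus strand of chr3:83007474-83007773 for FGG. Capitals mark matches, on either strand, to GTTAAT (HNF1), TTNNGNAA (C/EBP), TTCNNNGAA (STAT) or CTGGGAA (an interleukin-6 response element of acute phase genes).

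FGA: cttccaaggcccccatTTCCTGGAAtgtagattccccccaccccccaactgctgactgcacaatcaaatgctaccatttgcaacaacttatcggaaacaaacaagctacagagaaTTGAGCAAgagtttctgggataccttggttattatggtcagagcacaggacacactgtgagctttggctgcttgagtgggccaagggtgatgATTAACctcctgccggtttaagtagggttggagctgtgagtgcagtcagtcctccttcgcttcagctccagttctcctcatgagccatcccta

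FGB: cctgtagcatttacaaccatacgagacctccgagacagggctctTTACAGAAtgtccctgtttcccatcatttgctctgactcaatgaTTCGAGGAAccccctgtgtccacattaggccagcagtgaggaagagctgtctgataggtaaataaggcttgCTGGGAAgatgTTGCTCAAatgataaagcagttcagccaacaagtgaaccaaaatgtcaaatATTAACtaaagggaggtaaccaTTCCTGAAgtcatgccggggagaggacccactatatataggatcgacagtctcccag

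FGG: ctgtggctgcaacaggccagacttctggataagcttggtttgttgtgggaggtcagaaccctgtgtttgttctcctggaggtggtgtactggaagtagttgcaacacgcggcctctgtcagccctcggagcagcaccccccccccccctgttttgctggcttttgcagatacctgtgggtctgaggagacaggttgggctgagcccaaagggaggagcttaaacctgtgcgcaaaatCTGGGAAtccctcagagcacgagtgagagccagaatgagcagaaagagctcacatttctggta

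FGB had 1 HNF1, 3 C/EBP, 1 STAT and 1 interleukin-6 element match, FGA had 1 each for HNF1, C/EBP and STAT, and FGG had the interleukin-6 element alone. The motifs were present in 7.1% (HNF1), 40.7% (C/EBP), 8.3% (STAT) and 11.1% (interleukin-6 element) of 32851 RefSeq promoters searched in the same way. Of the others, F2 had 1 HNF1 match, F11 had 1 C/EBP match, KLKB1 had 2 C/EBP matches, and F5 and F12 had none of the 4 motifs. A match is a description of the sequence and not a bound site.

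The spread of each member over the 13 groups differed widely. For 7 of the 10 members (F5, F11, FGB, FGG, KLKB1, KNG1 and PLG), Direct-78 had the lowest group median CPM. FGB spanned the widest range, with a highest group median, in S1-32, 33.9 times the lowest, in Direct-78. The same ratio was 9.72 for F2 (S1-10 over Control-32), 5.17 for F11 (S1-78 over Direct-78), 4.93 for F5 (S1-10 over Direct-78) and 1.80 for F12 (Control-57 over Control-10). For FGG, KLKB1, KNG1 and PLG the highest median was in S1-32 and the ratios ran from 2.76 (KLKB1) to 4.85 (KNG1). FGA was the exception among the fibrinogen genes, with its highest median in Control-32 and its lowest in S2-32 (ratio 2.44). Along the order of group medians, all 12 pairs of neighbouring groups overlapped for every member, so the order as a whole is not resolved by the libraries. A count of 0 occurred for F2 alone, in Control-32 mouse 73 and Direct-78 mouse 65, where 3 counts would be 4.42 and 4.04 CPM.

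**Figure D1:**
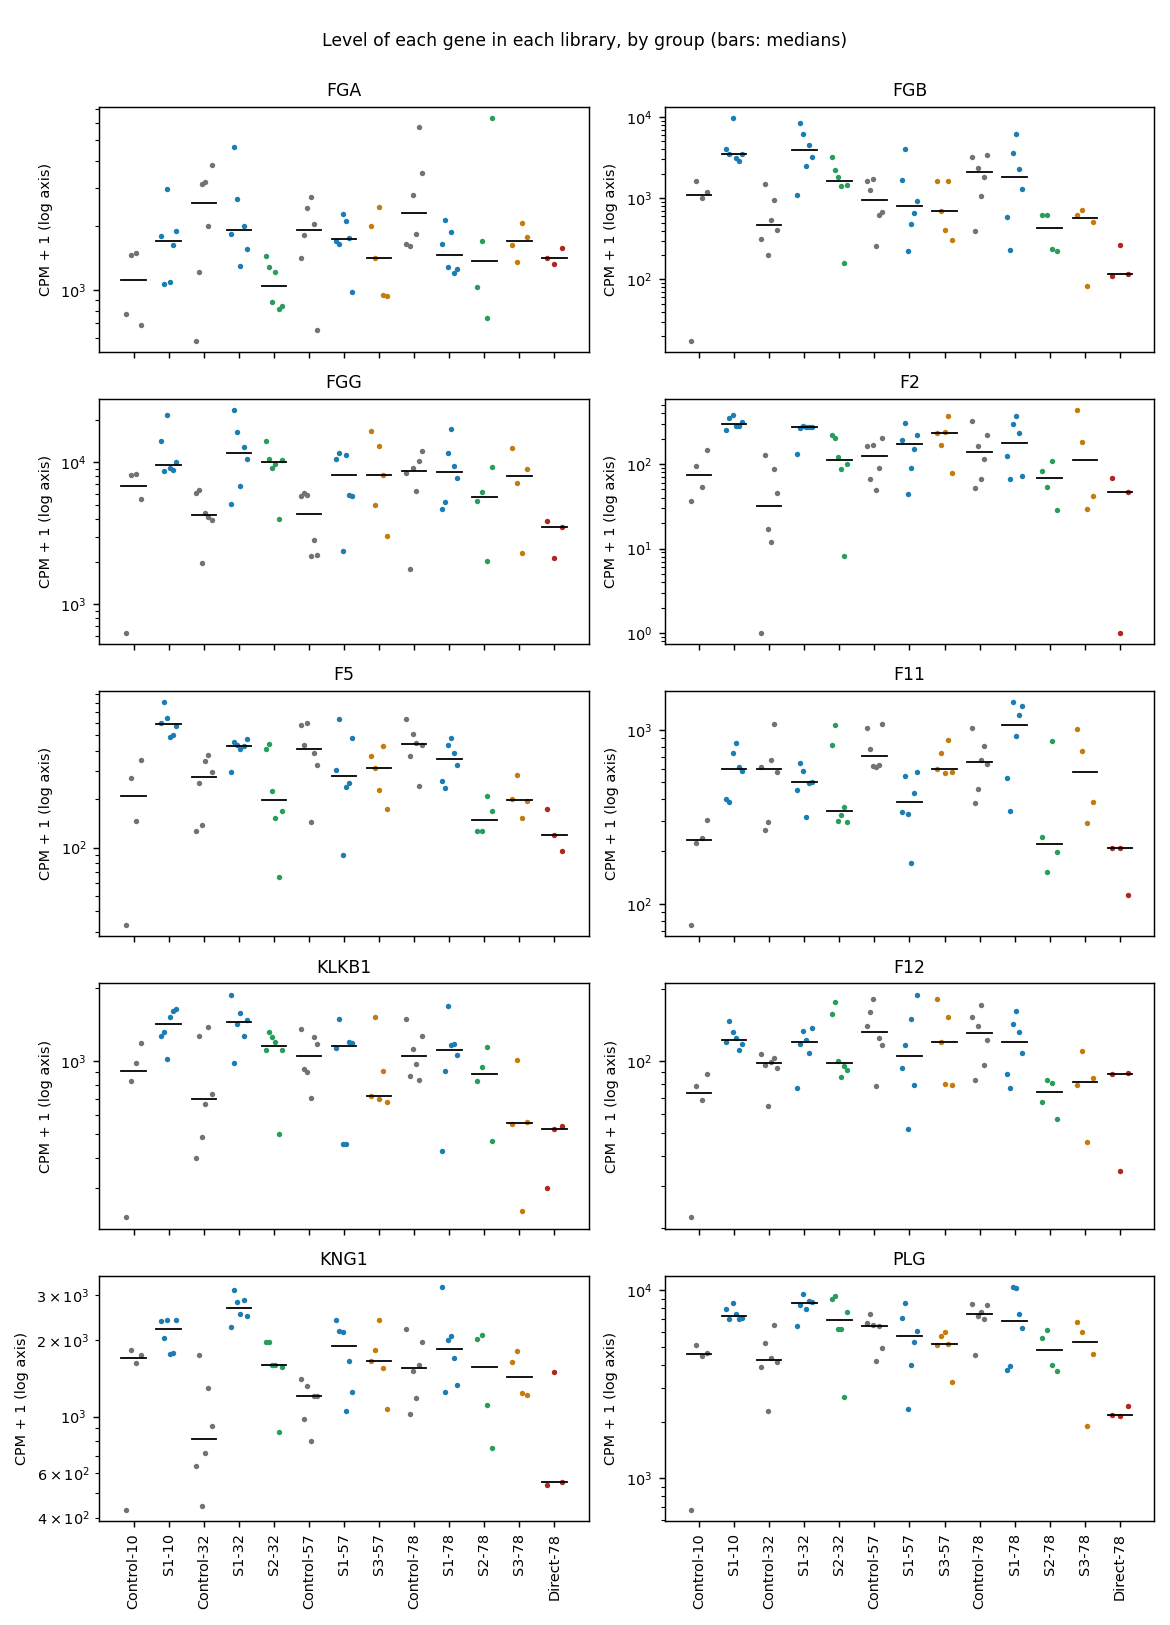
CPM plus 1 of each member on a log axis, 1 point per library, by group, with a bar at each group's median. The 3 Direct-78 libraries lie below all 6 Control-78 libraries for F5, F11, FGA, FGB, KLKB1 and PLG, and S1-10 lies above all 4 Control-10 libraries for F2, F5, F11, F12, FGB, FGG and PLG. The share of all genes that separate in this way was not counted.

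At 10 weeks the comparison shows the members while DCA was being given. F5 ran from 489 to 799.6 CPM (median 585) in the 6 S1-10 mice and was 31.8, 269, 146 and 352 CPM in Control-10 mice 68, 69, 71 and 72. F11 ran from 385 to 842 CPM (median 596) against 74.2, 224, 237 and 301 CPM in the same controls. For both genes every S1-10 mouse was above every control. F5 rose by 1.58 on the log2 scale (SE 0.44, adjusted p 0.0249), and F11 rose by 1.502 (SE 0.45, adjusted p 0.0331). A DEG here has an adjusted p of 0.05 or less over all 2205 genes and a fold change over 1.5. These were 2 of 10 members, where 1.09% of all genes were DEGs in the same direction.

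The other 8 members also had positive log2 changes at 10 weeks, and none passed in edgeR, while of the 10 members DESeq2 called 6 and limma 3. The shares of all genes called by DESeq2 and limma are not given, here or below. Counts from these tools therefore cannot be set against the edgeR shares. FGB had the largest, 2.21 (SE 0.81, adjusted p 0.0959), with 2909 to 9671 CPM (median 3534) in S1-10 and 16.5, 1618, 1009 and 1201 CPM in the controls. F2 ran from 252 to 376 CPM (median 297) against 35.4, 93.4, 52.8 and 147 CPM, a change of 1.91 (SE 0.76, adjusted p 0.124). FGB and F2, with F12, FGG and PLG, were above all controls in 6 of 6 mice, and control mouse 68 was the lowest control for each of these 5 genes. The share of all genes that lay above or below all controls was not counted, in this or the other comparisons. The remaining changes ran from 0.59 (KNG1) to 1.10 (FGG), and 8 of 10 members had an unadjusted p under 0.05, where 21.0% of all genes had such a p. The median over the 10 members was 1.05 beside -0.03 for all genes, and the sign of all 10 held with median-ratio and upper-quartile factors, which moved the all-gene median to -0.11 and -0.16.

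Both calls at 10 weeks depended on single libraries of either group. The F5 call was lost without S1-10 mouse 14 (log2 change 1.48), control mouse 68 (1.24) or control mouse 71 (1.46). The F11 call was lost without S1-10 mice 15 (1.43), 16 (1.38) or 18 (1.51) and without control mice 68 (1.23) or 71 (1.57), so that no member passed without mouse 68 or mouse 71. F12, the factor that starts the contact system, passed without control mouse 72 (1.16). With all libraries F11 (1.12) was lost, with median-ratio factors F12 (0.94) and PLG (0.99) joined, and in a fit of the 2 groups by themselves F5 (1.56) was lost and F2 (1.88) passed. Control mouse 68 was also low in 7 hepatocyte marker genes, which summed to 15210 CPM in it and to 55710 to 70690 CPM in the other 3 controls. The sum ran from 61610 to 89530 CPM (median 82830) in S1-10 against a control median of 56920 CPM. In liver measured in bulk, fewer cells of a type and less RNA per cell cannot be told apart.

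At 32 weeks, 22 weeks after DCA was stopped in S1, 5 of 10 members were higher than in Control-32, and no member was lower. KNG1, the bradykinin precursor, ran from 2253 to 3161 CPM (median 2674) in S1-32 and from 444 to 1746 CPM (median 816) in Control-32. F2 ran from 132 to 283 CPM (median 272) against 0 to 127 CPM (median 30.5). These groups did not overlap for either gene. FGB ran from 1093 to 8417 CPM (median 3884) against 198 to 1492 CPM (median 471), FGG from 5057 to 23300 CPM (median 11720) against 1953 to 6383 CPM (median 4259), and PLG from 6454 to 9490 CPM (median 8508) against 2284 to 6487 CPM (median 4261). In each of these 3 genes the lowest S1-32 library, mouse 19, was the only one that overlapped the controls.

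FGB rose by 2.73 (SE 0.71, adjusted p 0.00424), F2 by 2.37 (SE 0.67, adjusted p 0.00744), KNG1 by 1.48 (SE 0.30, adjusted p 0.000481), FGG by 1.48 (SE 0.47, adjusted p 0.0158) and PLG by 0.91 (SE 0.31, adjusted p 0.0262). Thus prothrombin, kininogen, plasminogen and 2 of the 3 fibrinogen chains were higher, while FGA had a change of 0.01 (SE 0.38, adjusted p 0.993). FGA ran from 1300 to 4639 CPM (median 1900) in S1-32 and from 577 to 3824 CPM (median 2557) in Control-32, with a single S1-32 mouse above all controls. Factor genes F5 (0.70), F12 (0.31) and F11 (-0.22) did not pass, nor did KLKB1 (0.80, adjusted p 0.0547). The share of all genes that were higher was 11.9%, and the median of the 10 members was 0.86 beside 0.05 for all genes. That all-gene median moved to -0.07 with median-ratio factors and to -0.24 with upper-quartile factors, where 8 rather than 9 of the 10 members were positive because FGA turned negative.

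F2, FGB and KNG1 kept their calls with each of the 12 libraries left out in turn. FGG lost its call without S1-32 mouse 20 (1.19) or control mouse 75 (1.32), PLG lost its call without control mice 75 (0.76) or 78 (0.81), and KLKB1 passed without control mice 74 (0.97) or 77 (0.96). Control mouse 75 had a squared Spearman correlation of 0.628 with the mean of all libraries, the lowest of the kept libraries. Without the kept libraries under 0.7, an alternative chosen after seeing the data, 3 of the 5 calls were left, without FGG (1.27) and PLG (0.70). With all 78 libraries 2 were left, F2 and FGB, without FGG (1.46), KNG1 (1.46) and PLG (0.88). The hepatocyte markers summed to 52450 to 84620 CPM (median 63820) in S1-32 and to 35800.0 to 66830 CPM (median 45870) in Control-32. S1-32 libraries were deeper than all Control-32 libraries, and with the log2 total count as a covariate none of the 5 passed, with changes of 1.58 for FGB, 1.37 for F2, 1.06 for KNG1, 1.38 for FGG and 0.46 for PLG. With this covariate 0.635% of all genes were higher, against 11.9% without it.

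The S2-32 mice were still on DCA at 32 weeks, and none of their 10 members passed the edgeR test against the same controls. At an unadjusted p under 0.05 there were 6 members (5 higher, 1 lower), and DESeq2 and limma called 1 each, where edgeR called 10.7% of all genes and 28.5% had an unadjusted p under 0.05. FGA stood apart from the other members. It ran from 814 to 1433 CPM (median 1047) in S2-32 against 577 to 3824 CPM (median 2557) in Control-32, a change of -1.11 (SE 0.39, adjusted p 0.0530). The 6 S2-32 mice were close together, and of the controls, mouse 74 (1209 CPM) lay among them and mouse 73 (577 CPM) below them. FGB (1.40), F2 (1.35), FGG (1.11), KNG1 (0.73) and PLG (0.63) were the members with positive changes at an unadjusted p under 0.05. FGG was above all controls in 5 of 6 mice. S2-32 mouse 41 was the lowest of its group for F2 (7.21 CPM), F5 (64.9 CPM), FGA (814 CPM), FGB (159.9 CPM), FGG (3964 CPM), KLKB1 (501 CPM), KNG1 (866 CPM) and PLG (2693 CPM). The hepatocyte markers summed to 35870 CPM in it and to 76470 to 104700 CPM in the other 5, above all controls (35800.0 to 66830 CPM).

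FGA was called lower without S2-32 mice 37 (-1.33) or 38 (-1.29) and without control mice 73 (-1.31), 74 (-1.24) or 77 (-1.21), and also with median-ratio (-1.27) and upper-quartile (-1.40) factors. It was also called without the libraries with pancreas genes (-1.11), none of which is in these groups, an alternative chosen after seeing the data. KNG1 was called higher without S2-32 mouse 41 (0.86) or control mouse 74 (0.99), and F2 without control mouse 74 (1.93). The median of the members was 0.51 beside 0.05 for all genes, which moved to -0.06 and -0.17 with those factors, and 7 of 10 members were positive under each.

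At 57 weeks, no member passed the edgeR test in S1-57, 47 weeks after DCA, or in S3-57, at the end of 57 weeks of DCA. For S1-57, 2 members had an unadjusted p under 0.05 (DESeq2 and limma called 0), where 1.59% of all genes were DEGs by edgeR and 13.3% had an unadjusted p under 0.05. F11 ran from 169.7 to 570.1 CPM (median 384) in S1-57 and from 614 to 1080 CPM (median 706) in Control-57. All 6 S1-57 mice were below all 6 controls, and the change of -0.998 had an adjusted p of 0.173. KNG1 was the other, with 1056 to 2404 CPM (median 1900.0) against 799 to 1409 CPM (median 1202), above all controls in 4 of 6 mice, and a change of 0.63 (adjusted p 0.329). The median of the 10 members was -0.09 beside 0.07 for all genes, which moved to 0.18 and 0.19 with median-ratio and upper-quartile factors.

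For S3-57, FGG alone had an unadjusted p under 0.05 (DESeq2 called 1 member, FGG, and limma 0), where 6.39% of all genes were DEGs by edgeR and 19.2% had an unadjusted p under 0.05. FGG was 16770, 4970, 13160, 8162 and 3036 CPM in mice 49, 50, 51, 53 and 54, so that 3 of 5 were above all controls, and its change was 1.14 (adjusted p 0.158). Of the other 9 members, 2 had positive changes, and the lowest change was -0.44. KNG1 was above all controls in 4 of 5 mice without passing the test. S3-57 totals (1123317 to 2030701) were all under those of Control-57 (2223516 to 4153377), and with the log2 total count as a covariate F2 (2.52) and KNG1 (1.04) were called higher, where 5.62% of all genes were.

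At 78 weeks the stopped groups show the members long after exposure. In S1-78, 68 weeks after DCA, no member passed in edgeR, DESeq2 or limma, and 1 had an unadjusted p under 0.05, where 1.81% of all genes were DEGs and 13.6% had such a p. That member was FGA, with 1197 to 2110 CPM (median 1459) against 1605 to 5758 CPM (median 2288) in Control-78 and a change of -0.87 (adjusted p 0.280). The members' median change was 0.09 and that of all genes 0.07.

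In S2-78, 46 weeks after DCA, no member passed in edgeR or limma, DESeq2 called 1 (F5), and 3 had an unadjusted p under 0.05, all lower, where 1.63% of all genes were DEGs and 15.6% had such a p. F5 was 125.6, 126, 208 and 167 CPM in mice 43, 44, 45 and 47, below all 6 controls (242 to 633 CPM, median 442). Its change was -1.49 (adjusted p 0.0599). FGB was 625.3, 629, 234 and 222 CPM against 399 to 3372 CPM (median 2092), a change of -2.25 (adjusted p 0.133), and F12 was below all controls in 4 of 4 mice, a change of -0.83 (adjusted p 0.160). All 10 changes were negative with a median of -0.70, but 2 turned positive with median-ratio and upper-quartile factors, which moved the all-gene median from 0.06 to 0.27 and 0.24. The hepatocyte markers were negative for 6 of 7 (median -0.36). Mouse 47 held pancreas genes at 14187 per 1000000 counts and had a squared Spearman correlation of 0.703 with the mean of all libraries. F5 was called (-1.46) without the kept libraries under 0.7, none of which is in these groups.

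In S3-78, 21 weeks after DCA, no member passed in edgeR or limma, DESeq2 called 1 (FGB), and 4 had an unadjusted p under 0.05, all lower, where 13.3% of all genes were DEGs and 28.4% had such a p. FGB was 620.1, 708, 83.1 and 507 CPM in mice 55, 56, 59 and 60, a change of -2.09 (adjusted p 0.0743). F5 was 200.4, 281, 152 and 193 CPM in the same mice, a change of -1.09 (adjusted p 0.0823), and KLKB1 (-0.89) and F12 (-0.68) were the others. For F5 and KLKB1, 3 of 4 mice were below all controls. The hepatocyte markers summed to 30250 to 53410 CPM (median 42570) against 46490 to 73670 CPM (median 62800.0). The median of the members was -0.63, with 9 of 10 negative, of which 3 turned positive under the other factors, where the all-gene median went from 0.07 to 0.27 and 0.34. Single libraries moved these counts from 0 to 1, as F11 was called in S2-78 without mouse 45 (-1.72), KLKB1 in S3-78 without mouse 56 (-1.23) and FGB in S3-78 without control mouse 86 (-2.32). In S3-78 FGB (-2.65) was also called with all libraries and F5 (-1.10) in a fit of the 2 groups by themselves.

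After 78 weeks of unbroken DCA, 5 of 10 members were lower than in Control-78, and no member was higher. FGB was 109.5, 266 and 115 CPM in Direct-78 mice 64, 65 and 66 and ran from 399 to 3372 CPM (median 2092) in the 6 controls. PLG was 2157, 2132 and 2404 CPM against 4522 to 8371 CPM (median 7457). F11 was 208, 208 and 111 CPM against 377 to 1023 CPM (median 653). All 3 Direct-78 mice were below all 6 controls in each case. The same held for F5, at 174, 119 and 94.5 CPM against 242 to 633 CPM (median 442), and for KLKB1, at 299, 524 and 540.0 CPM against 831 to 1486 CPM (median 1045).

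FGB fell by 3.64 on the log2 scale (SE 1.00, adjusted p 0.00750), F11 by 1.91 (SE 0.51, adjusted p 0.00644), F5 by 1.77 (SE 0.50, adjusted p 0.00912), PLG by 1.69 (SE 0.42, adjusted p 0.00349) and KLKB1 by 1.26 (SE 0.42, adjusted p 0.0263). A fibrinogen chain, a cofactor, a pair of contact system genes and plasminogen were thus lower together. The other 5 did not pass, with changes of -2.02 (F2), -1.33 (FGG), -0.99 (FGA), -0.88 (KNG1) and -0.86 (F12), and all 10 had an unadjusted p under 0.05, where 38.7% of all genes had such a p. FGA, at 1404, 1326 and 1577 CPM, was also below all controls (1605 to 5758 CPM) in 3 of 3 mice, while F2, with 68.1, 0 and 45.9 CPM, was below them all in 2 of 3. The share of all genes that were lower was 18.7%, and 5.71% were higher. These shares were 11.6% and 10.0% with median-ratio factors, and 10.7% and 10.6% with upper-quartile factors. The median of the members was -1.51 beside -0.33 for all genes, which moved to 0.07 and 0.12 with median-ratio and upper-quartile factors, and all 10 members stayed negative under each.

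Direct-78 mice 64, 65 and 66 had squared Spearman correlations of 0.712, 0.800 and 0.641 with the mean of all libraries, where the controls had 0.849 to 0.944. The hepatocyte markers were also lower in sum, at 23160 to 38000 CPM (median 30700.0) against 46490 to 73670 CPM (median 62800.0). PLG was the 1 member called lower with each of the 9 libraries left out in turn. F11 (-1.63) and F5 (-1.55) lost their calls without Direct-78 mouse 66, and FGB lost its call without Direct-78 mouse 64 (-3.31). KLKB1 lost its call without Direct-78 mice 64 (-0.91) or 66 (-1.37) or control mouse 85 (-1.02), and with median-ratio (-0.86) or upper-quartile (-0.78) factors. Without mouse 66, as without the kept libraries under a correlation of 0.7, an alternative chosen after seeing the data, 2 of the 5 calls were left, FGB and PLG. With all 78 libraries 9 members were called lower, all but FGA. The share of all genes lower with all 78 libraries was not counted. F12 (-0.90) and FGG (-1.49) were called lower without control mouse 86, and KNG1 (-1.34) without Direct-78 mouse 65. Each Direct-78 library held fewer counts than each control, and with the log2 total count as a covariate none of the 10 passed: PLG had -0.50, FGB -0.26, F5 -0.02 and F11 -0.02, while KLKB1 (0.78), F2 (1.82) and KNG1 (0.37) turned positive. With this covariate 0.408% of all genes were lower, against 18.7% without it.

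**Figure D2:**
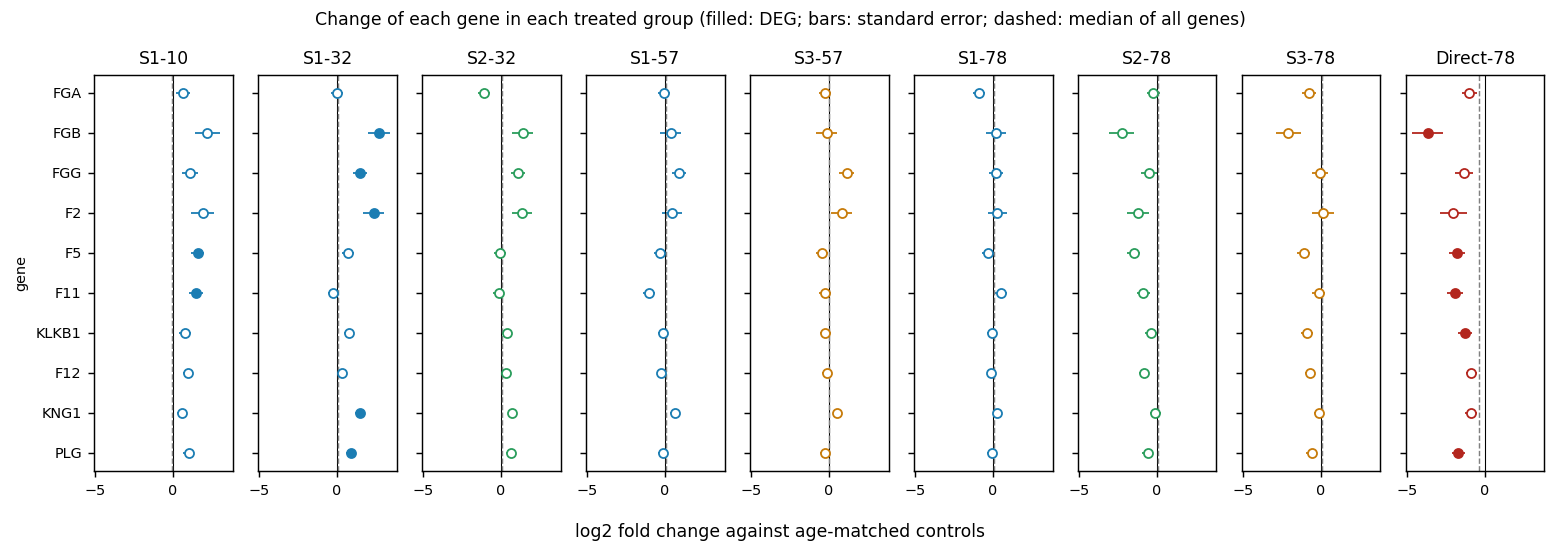
Log2 change of each member against age-matched controls in the 9 treated groups, with bars of 1 SE, filled points for DEGs and a dashed line at the median of all genes. Filled points lie above the line for F5 and F11 in S1-10 and for F2, FGB, FGG, KNG1 and PLG in S1-32, and below it for F5, F11, FGB, KLKB1 and PLG in Direct-78.

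**Figure D3:**
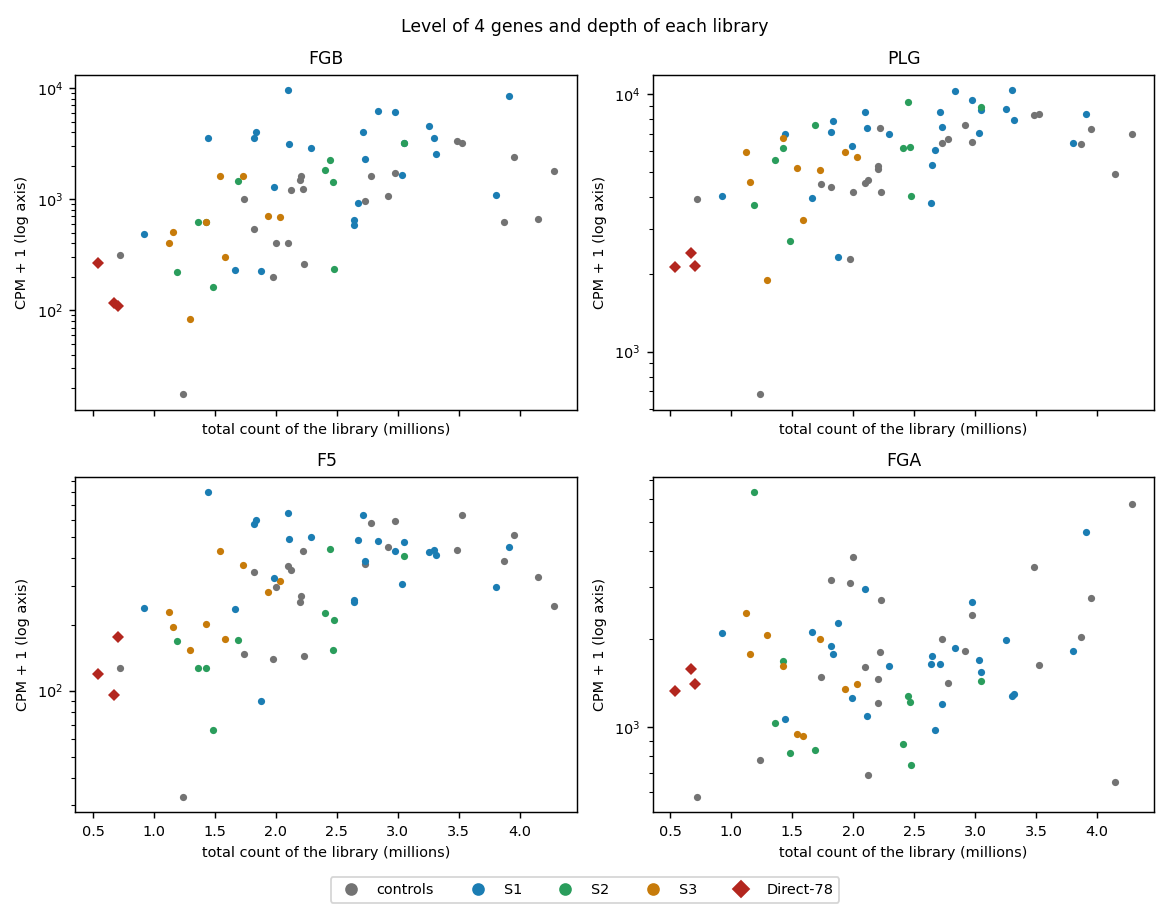
CPM plus 1 of FGB, PLG, F5 and FGA against the total count of each kept library, on a log scale, with Direct-78 as red diamonds. The 3 Direct-78 libraries have the lowest totals of all kept libraries, 541245 to 699825, and the next is a Control-32 library with 721372.

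Whether the change at 10 weeks differed from the change in later groups was tested on the difference between the changes, called at an adjusted p of 0.05 or less. These contrasts all share S1-10 and Control-10. For Direct-78 the difference passed for all 10 members, all lower, where 20.4% of all genes were lower. FGB differed by -5.86 (SE 1.29, adjusted p 0.000647), F5 by -3.35 (SE 0.67, adjusted p 0.000239), F2 by -3.93, F11 by -3.42, PLG by -2.70, FGG by -2.43, KLKB1 by -2.05, F12 by -1.83, FGA by -1.65 (adjusted p 0.0463) and KNG1 by -1.47. The median was -2.56 beside -0.35 for all genes. With median-ratio factors the all-gene median moved to 0.14 and the share of all genes lower to 14.8%, and all 10 members stayed negative.

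F2, F5, F11, F12, FGB, KLKB1 and PLG kept this call with each library of the 4 groups left out in turn. FGA lost it without any 1 of S1-10 mice 13 (-1.64), 15 (-1.43) and 18 (-1.62), Direct-78 mice 64 (-1.48), 65 (-1.37) and 66 (-1.65), Control-10 mice 68 (-1.36) and 72 (-1.47), and Control-78 mice 85 (-1.58), 87 (-1.65), 89 (-1.24) and 90 (-1.57). FGG lost it without Direct-78 mouse 65 (-2.002) or Control-10 mouse 68 (-1.88), and KNG1 without Direct-78 mice 64 (-1.12) or 66 (-1.17) or Control-10 mouse 68 (-1.05). The F2 difference was -3.12 without Direct-78 mouse 65. With the log2 total count as a covariate none of the 10 passed, and all 10 stayed negative, from -2.58 (FGB) to -0.02 (KLKB1). Over all genes 0.454% were then lower, against 20.4%.

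F5 was also the 1 member whose change differed from that at 10 weeks in S3-57, by -2.02 (SE 0.59, adjusted p 0.0226), and in S1-78, by -1.90 (SE 0.57, adjusted p 0.0414). The shares of all genes lower in these tests were 2.86% and 1.13%. The S3-57 call for F5 was lost without Control-10 mice 68 (-1.70) or 71 (-1.90), and F11 joined it without S3-57 mouse 53 (-1.90), Control-10 mouse 72 (-1.97) or Control-57 mouse 82 (-1.78). The S1-78 call was lost without S1-10 mice 14 (-1.80), 15 (-1.88) or 18 (-1.91), S1-78 mice 31 (-1.83) or 32 (-1.80), Control-10 mice 68 (-1.56) or 71 (-1.77), or Control-78 mice 85 (-1.78), 87 (-1.85), 88 (-1.88) or 90 (-1.90). With the log2 total count as a covariate neither F5 call held, at -1.45 for S3-57 and -1.72 for S1-78, where 0.635% and 0.499% of all genes were lower. F11 also passed for S3-57 with median-ratio factors (-1.67) and without the kept libraries under a correlation of 0.7 (-1.76), and F5 did not pass for S1-78 without the libraries with pancreas genes (-1.92). No library under 0.7 is in the groups of the S3-57 difference. For S2-32 no member passed in edgeR, the tool used for these contrasts, and 3 had an unadjusted p under 0.05, where 1.86% of all genes passed and 15.1% had such a p. There F5 and F11 (-1.99) passed with this covariate (adjusted p 0.0239 for each), where 1.45% of all genes were lower. F5 also passed without S2-32 mice 37 (-1.96) or 38 (-2.003), and F11 without mouse 38 (-2.05).

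Continued exposure was compared with stopped exposure at the same week. At 32 weeks, S2-32 minus S1-32 gave no DEG among the members in edgeR and 3 with an unadjusted p under 0.05, where 3.54% of all genes were DEGs and 17.7% had such a p. At 57 weeks, S3-57 minus S1-57 gave none at either threshold among the members, 0 DEGs among all genes (0%) and an unadjusted p under 0.05 for 5.03% of them. The 3 members with an unadjusted p under 0.05 at 32 weeks were FGA (-1.11), F5 (-0.77) and KNG1 (-0.75, adjusted p 0.152). Of these, KNG1 is among the 5 members higher in S1-32 than in controls. The 5 were thus not shown to differ between stopped and continued exposure at 32 weeks.

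At 78 weeks, 7 of 10 members were lower in Direct-78 than in S1-78, where 19.1% of all genes were lower. FGB differed by -3.86, F11 by -2.46 (adjusted p 0.00159), F2 by -2.33, PLG by -1.65, F5 by -1.45, KLKB1 by -1.24 and KNG1 by -1.17, with a median of -1.51 over the 10 members beside -0.36 for all genes. F11, FGB and PLG kept the call with each of the 9 libraries left out in turn. F2 lost it without S1-78 mice 33 (-2.17), 34 (-2.04), 35 (-2.06) or 36 (-2.29) or Direct-78 mice 64 (-2.89), 65 (-1.54) or 66 (-2.43). F5 lost it without S1-78 mouse 35 (-1.26) or Direct-78 mice 64 (-1.61), 65 (-1.18) or 66 (-1.23), and KLKB1 without S1-78 mice 33 (-1.06) or 35 (-1.06) or Direct-78 mice 64 (-0.88), 65 (-1.15) or 66 (-1.33). KNG1 lost it without S1-78 mouse 31 (-0.96) or Direct-78 mice 64 (-0.82) or 66 (-0.89), while FGG passed without S1-78 mice 31 (-1.71) or 32 (-1.69). With median-ratio factors F11, FGB, KNG1 and PLG were called, F2 (-1.92), F5 (-1.13) and KLKB1 (-0.90) were not, and FGA turned positive (0.22). The share of all genes lower was then 13.7%. Without the kept libraries under a correlation of 0.7 the calls were F11, FGB and PLG.

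F11 was the 1 member lower in Direct-78 than in S3-78, by -1.80 (SE 0.53, adjusted p 0.0339), where 4.67% of all genes were lower. The call was lost without S3-78 mice 55 (-1.32) or 56 (-1.57) or Direct-78 mice 64 (-1.85), 65 (-1.74) or 66 (-1.50), and KNG1 passed without mouse 65 (-1.28). With the log2 total count as a covariate no member passed in either comparison of Direct-78 with a stopped group, where 0.363% (against S1-78) and 1.18% (against S3-78) of all genes were lower. The F11 call was also lost without the kept libraries under a correlation of 0.7 (-1.54).

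In untreated liver, F11 and F12 were higher at 57 weeks than at 10 weeks, and F11 was higher at 78 weeks, where 2.40% and 2.36% of all genes were higher. F11 was 74.2, 224, 237 and 301 CPM in the 4 Control-10 mice, 614 to 1080 CPM (median 706) in Control-57 and 377 to 1023 CPM (median 653) in Control-78. No Control-57 or Control-78 mouse was below a Control-10 mouse, and the share of all genes that separate by age in this way was not counted. F11 was higher by 1.92 (SE 0.45, adjusted p 0.0100) at 57 weeks and by 1.66 (SE 0.45, adjusted p 0.0228) at 78 weeks, and F12 was higher by 1.06 (SE 0.32, adjusted p 0.0485) at 57 weeks. At 32 weeks no member passed in edgeR and 2 had an unadjusted p under 0.05, where 1.59% of all genes were DEGs and 17.9% had such a p, and F11 had a change of 1.48 (adjusted p 0.0654). These 3 comparisons share the Control-10 mice.

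F11 at 57 weeks kept its call with each of the 10 libraries left out. F12 at 57 weeks lost it without Control-10 mice 68 (0.82), 69 (1.17), 71 (1.09) or 72 (1.25) or Control-57 mice 79 (1.04), 80 (1.00), 81 (0.95) or 83 (1.05), which is 8 of the 10. F11 at 78 weeks lost it without Control-10 mice 68 (1.42) or 71 (1.73), and F12 at 78 weeks passed without Control-78 mouse 86 (1.08). F11 at 32 weeks passed without Control-32 mouse 74 (1.63). Control-57 totals (2223516 to 4153377) did not overlap Control-10 totals (1233543 to 2206672), and with the log2 total count as a covariate F12 at 57 weeks (0.92) and F11 at 78 weeks (1.02) did not pass, while F11 passed at 57 weeks and also at 32 weeks (1.63). The shares of all genes higher were then 2.40% at 32 weeks, 4.04% at 57 and 2.59% at 78. In fits chosen after seeing the data, without the libraries with pancreas genes F12 at 57 weeks (1.06) did not pass and FGA at 78 weeks (1.37) did, and without those under a correlation of 0.7 F12 passed at 78 weeks (1.02) and F11 at 32 (1.68). None of the libraries with pancreas genes is a control, and of those under 0.7 only a Control-32 library is.

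The fibrinogen chains did not change in a fixed proportion. A ratio of the counts of 2 genes within a library does not depend on the library's scaling, but whether it changes with depth was not tested. Totals of treated and control libraries did not overlap for S1-32, S3-57, S3-78 and Direct-78. In the 9 treated groups 4 ratios were compared with age-matched controls by an exact 2-sided permutation test. Of the 36 tests, 14 had an unadjusted p under 0.05 and 9 passed after adjustment over the 36. The share among ratios of other gene pairs was not counted, so these counts are not shown to be particular to these genes. FGB over FGA ran from 1.80 to 3.31 (median 2.55) in S1-10 and was 0.0218, 1.11, 0.681 and 1.75 in Control-10 mice 68, 69, 71 and 72. It ran from 0.602 to 2.29 (median 2.01) in S1-32 against 0.0637 to 1.23 (median 0.324) in Control-32. In Direct-78 it was 0.0783, 0.201 and 0.0732 against 0.249 to 1.96 (median 0.728) in Control-78. FGB counts thus stood higher relative to FGA counts in S1-10 and S1-32 and lower in Direct-78, while in S1-57 and S1-78 the ratio did not pass.

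The mean log2 FGB over FGA ratio differed from controls by 2.59 in S1-10 (SE 1.45, exact p 0.00476, adjusted p 0.0334), by 2.66 in S1-32 (SE 0.73, exact p 0.00433, adjusted p 0.0334) and by -2.63 in Direct-78 (SE 0.65, exact p 0.0119, adjusted p 0.0476). FGB is also in FGG over FGB, so a change in FGB alone moves both ratios, in opposite directions. The 3 fibrinogen ratios share genes and are thus not separate evidence. FGG over FGB moved the other way, by -1.71 in S1-10, -1.39 in S1-32, 1.66 in S2-78, 2.10 in S3-78 and 2.29 in Direct-78. It was 8.49, 9.76, 8.67 and 41.8 in S2-78, 20.5, 10.1, 27.7 and 17.8 in S3-78, and 35, 8.01 and 30.5 in Direct-78, against 2.62 to 5.85 (median 4.12) in Control-78. The 3 late groups shared these controls and lay above all 6 of them in every library. All S3-78 and Direct-78 libraries were also shallower than these controls. The shallowest library had its group's highest FGG over FGB in Control-10 (mouse 68, 37.2), Control-32 (mouse 73, 19.4), S1-57, S1-78, S2-32, S2-78 and S3-57. It did not in S1-10, S1-32, S3-78, Direct-78, Control-57 or Control-78. With 3 to 6 libraries in a group, chance alone would put the shallowest library highest in a minority of groups. Whether depth moves this ratio was not tested. FGG over FGA passed in no group. KLKB1 over F11, the neighbours on chromosome 8, passed in S1-57 alone, by 0.85 (SE 0.22, exact p 0.00649), with 1.40 to 3.36 (median 2.70) against 1.09 to 1.99 (median 1.25).

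With 3 Direct-78 libraries the smallest exact p is 0.0119. Without a Direct-78 or control library it is 0.0357 or 0.0179, and the lowest adjusted p that either Direct-78 ratio could then reach is 0.0585. Neither could pass, so leaving out 1 library says nothing about the stability of these calls, and the values are given for their direction. FGB over FGA was -2.42, -3.10 and -2.37 without Direct-78 mice 64, 65 and 66, and -2.31, -2.91, -2.55, -2.66, -2.84 and -2.52 without control mice 85 to 90. FGG over FGB was 1.90, 2.97 and 2.00, and 2.16, 2.31, 2.27, 2.39, 2.38 and 2.25, in the same order. In S1-32 both calls were lost without mice 20, 21, 22, 23 or 24, with FGB over FGA at 2.64, 2.57, 2.62, 2.57 and 2.60, and FGG over FGB at -1.36, -1.35, -1.35, -1.37 and -1.41. KLKB1 over F11 in S1-57 was lost without mice 25 (0.76), 26 (0.82), 28 (0.83), 29 (0.81) or 30 (0.90) or control mouse 84 (0.80). In S1-10 each mouse lay beyond all controls in both ratios, so that the exact p is the smallest possible whichever library is left out. Without control mouse 68 FGB over FGA was 1.18 and FGG over FGB was -1.03, and with all libraries FGB over FGA (2.84) did not pass. FGG over FGB in S2-78 was 1.10 without mouse 47. FGB over FGA passed in S2-32 without mouse 41 (2.72) or control mouse 74 (2.63), FGG over FGA in S2-32 without control mice 73 (2.45) or 74 (2.26), FGG over FGB in S3-57 without mice 50 (1.36) or 53 (1.49) or control mouse 82 (1.41), and KLKB1 over F11 in S3-78 without control mouse 89 (-0.96).

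**Figure D4:**
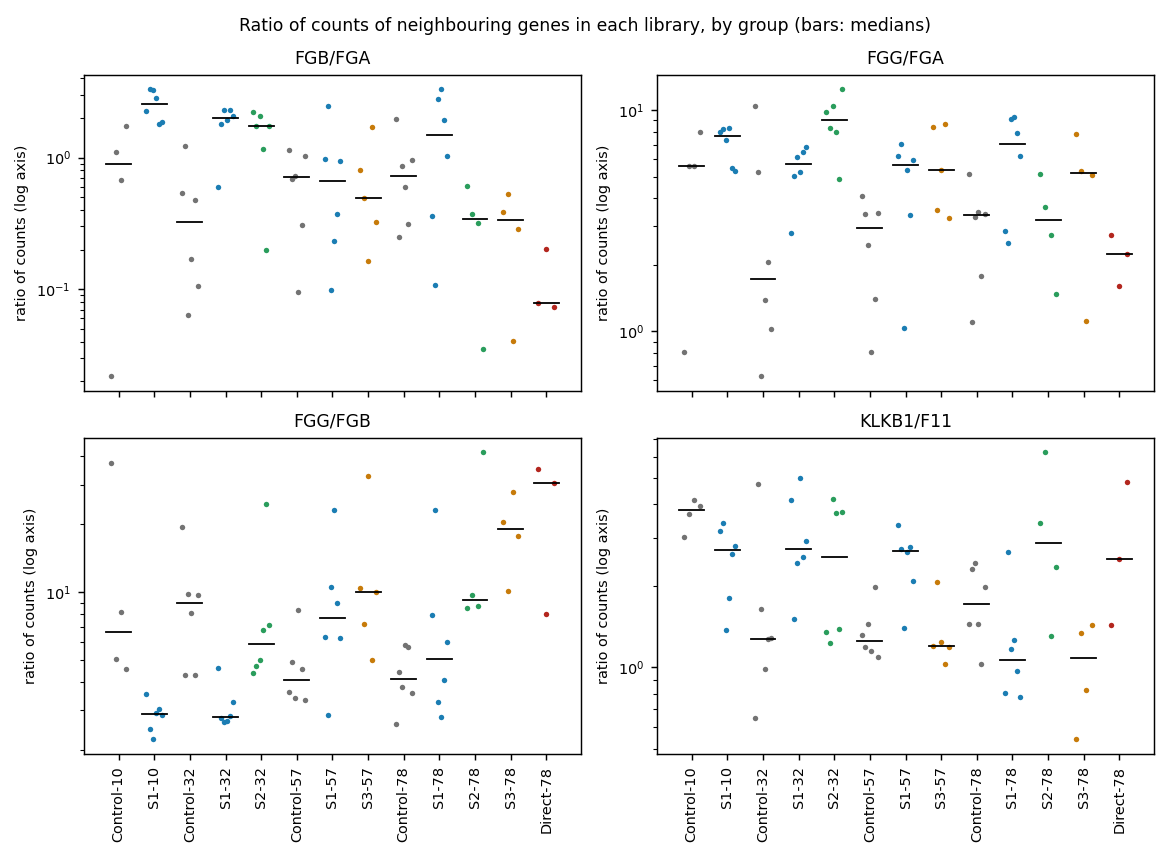
Ratio of counts within each library for FGB over FGA, FGG over FGA, FGG over FGB and KLKB1 over F11, by group, on a log axis, with a bar at each median. FGG over FGB is lowest in S1-10 and S1-32 (medians 2.88 and 2.80) and highest in Direct-78 (median 30.5).

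Within groups, FGB and FGG moved together from mouse to mouse and FGA did not move with FGB. Deviations from the group mean of log2 CPM were compared over 68 libraries by permutation within groups, 2-sided, for 4 pairs with adjustment over them. FGB with FGG gave r 0.81 and rho 0.72 (permutation p 1e-05 for each, the smallest these permutations can give, adjusted p 4e-05). FGA with FGG gave r 0.34 and rho 0.39 (permutation p 0.0101 and 0.00263, adjusted p 0.013 and 0.0035), and FGA with FGB gave r 0.07 and rho 0.07 (permutation p 0.555 and 0.569, adjusted p 0.55 and 0.57). KLKB1 with F11 gave r 0.49 and rho 0.45 (permutation p 0.00076 and 0.00067, adjusted p 0.0015 and 0.0013). Without the 2 libraries farthest from the median of the first gene, r was 0.76, 0.37, 0.09 and 0.42 in the same order. The median r over all pairs of tested genes was 0.02. As a description over all 10 members, FGB was close to PLG (r 0.90) and F5 to PLG (r 0.78), while r of FGA with the other 9 ran from -0.23 to 0.34.

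Across the 13 group means, and as a description without a test, the genes outside the 10 whose pattern was close to the mean of the fibrinogen genes included SEL1L (r 0.96), which acts in the removal of misfolded proteins from the endoplasmic reticulum, and SERPING1, the C1 inhibitor (r 0.95). For KNG1 the closest was HC, complement component C5 (r 0.97), for KLKB1 the carboxylesterase CES2A (r 0.97), for F2 the receptor phosphatase PTPRF (r 0.97), and for PLG SGPL1, an enzyme of sphingolipid breakdown (r 0.95). For F5 it was PIH1D1 (r 0.93), for F12 1300017J02RIK (r 0.90) and for F11 the kinase CSK (r 0.89). The search covered 2195 genes, and the values named are among the highest of that many.

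Of the other genes of clotting and its control, 13 were tested. SERPIND1, heparin cofactor II, and SERPING1 were the 2 DEGs in S1-10 (1.77 and 1.56), where 1.09% of all genes were higher, and both calls were lost without control mouse 68 (1.46 and 1.24), that of SERPING1 also without control mouse 71 (1.54) or S1-10 mouse 15 (1.44). In S1-32 5 were higher, where 11.9% of all genes were, of which SERPINA10, an inhibitor of factors X and XI (3.36), SERPING1 (2.19) and fibronectin FN1 (0.97) kept their calls with each library left out, and the thrombin receptor F2R (1.15) lost it without control mice 73 (1.04), 75 (1.03) or 78 (0.94). In S2-32 vitronectin, VTN, was lower (-1.22), a call lost without control mice 76 (-1.13) or 78 (-1.20) or S2-32 mouse 42 (-1.15). In Direct-78 5 were lower and 1 higher, where 18.7% of all genes were lower. SERPINA10 (-4.81) and F2R (-2.29) kept their calls throughout, and tissue factor F3 was called lower but not without control mouse 85 or any 1 of the Direct-78 mice. F3 had no count in any Direct-78 library, where 3 counts would be 2.96 to 4.05 CPM, and 0 to 12.8 CPM (median 1.25) in Control-78, so its level is not resolved at this depth. Urokinase PLAU was higher (1.94), a call lost without control mouse 90 (1.80) or Direct-78 mice 64 (1.54) or 66 (1.99). No gene of this list was a DEG at 57 weeks or in S1-78, S2-78 or S3-78. The list's median change was 0.71 in S1-10, 0.16 in S1-32 and -1.01 in Direct-78.

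Of the acute phase genes, 13 were tested. In S1-32 9 of 13 were higher (median 2.45), where 11.9% of all genes were, with LCN2 (7.84), SAA2 (7.28), SAA1 (6.55) and SERPINA3N (4.06) called with each library left out. SAA1 ran from 1726 to 318800 CPM and SAA2 from 619 to 260400 CPM between the S1-32 mice. Their highest counts in a library there were 668124 and 545767, and such counts are part of the totals taken as depth. In S1-10 the pentraxin APCS (2.87) and haptoglobin HP (1.96) were higher (median of the list 1.96), where 1.09% of all genes were, both lost without control mouse 68 (2.47 and 1.81) or S1-10 mouse 15 (1.78 and 1.33), and APCS without control mouse 72 (2.79). In Direct-78 7 were lower (median -2.61), where 18.7% of all genes were. Of these ITIH1 (-3.68) kept its call throughout, and SAA1 (-7.27) lost it without Direct-78 mice 64 (-7.21) or 66 (-7.15). SAA2 (-6.79) lost it without control mouse 89 (-5.44) or Direct-78 mice 64 (-6.72), 65 (-6.65) or 66 (-6.66), and SERPINA3N (-4.03) without control mouse 87 (-3.42) or Direct-78 mice 64 (-4.03), 65 (-3.25) or 66 (-4.64). In S2-32 ORM3 and MT2 were lower at counts of 0 to 2 in S2-32, where 7.21% of all genes were lower, MT2 not without control mouse 75, and no acute phase gene was a DEG in the other 5 groups.

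Of 11 hepatocyte complement genes tested, 3 were higher in S1-10 (median of the list 1.44), where 1.09% of all genes were, and all 3 calls were lost without control mouse 68. In S1-32 5 were higher (median 0.97), where 11.9% of all genes were, and CFD was lower at counts of 0 to 2, not without control mouse 75. In Direct-78 7 were lower and 1 higher (median -2.10), where 18.7% of all genes were lower. HC, close to KNG1 in pattern, was 1.86 in S1-10, 2.49 in S1-32 and -2.77 in Direct-78, the first lost without control mice 68 (1.76), 71 (1.77) or 72 (1.81) or S1-10 mice 15 (1.82) or 18 (1.83). C8A (1.94, not without control mouse 68, 1.79) and C3 (1.55) were the others in S1-10. The C3 call there was lost without control mice 68 (1.28), 71 (1.64) or 72 (1.62) or S1-10 mice 13 (1.54), 14 (1.59), 15 (1.31), 16 (1.58) or 18 (1.63). C3 (1.39) in S1-32 and C8A (-3.75) in Direct-78 were called with each library left out. C9 of the membrane attack complex was lower in S2-32 (-2.46), S3-57 (-2.69, not without mouse 51, -2.49), S3-78 (-3.12) and Direct-78 (-3.23, not without mouse 64, -3.03). C8B of the same complex was lower in S2-32 (-1.71), S3-57 (-2.37, not without mice 49, -2.25, or 51, -2.16), S3-78 (-2.83) and Direct-78 (-3.04, not without mouse 64, -2.61), and C8A in S3-78 (-1.39, not without mice 55, -0.99, or 59, -1.27). The C8B call in S2-32 was lost without control mice 75 (-1.75), 76 (-1.61) or 78 (-1.58) or S2-32 mice 39 (-1.65), 40 (-1.76), 41 (-1.497) or 42 (-1.54). S1-57, S1-78 and S2-78 had no DEG on this list.

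Of 17 regulators known for these genes, 1 was lower in S1-10, 5 were higher and 1 lower in S1-32, 4 were lower in Direct-78, and 1 each was lower in S2-32, S3-57 and S3-78. The shares of all genes lower were 4.40%, 17.2%, 18.7%, 7.21%, 3.54% and 7.48% in that order, and 11.9% were higher in S1-32. CEBPB was lower in S1-10 (-2.01, not without control mouse 68, -1.33) and in S1-32 (-1.85, with each library left out), while members were higher. STAT5B (1.41) was higher in S1-32 with each library left out. STAT3, which carries the interleukin-6 signal (1.91), was higher there but not without control mice 75 (1.82), 76 (1.71) or 78 (1.65). The bile acid receptor NR1H4 (2.12) was not without S1-32 mouse 22 (1.95) or control mice 73 (1.88), 75 (2.05), 76 (1.84), 77 (1.94) or 78 (1.90). In Direct-78 IL1R1 (-2.53), HNF4A (-2.19) and the glucocorticoid receptor NR3C1 (-1.61) were lower, none of them without Direct-78 mice 64 (-2.27, -1.87 and -1.39) or 66 (-2.24, -1.84 and -1.18), and JAK1 (-1.14) was lower but not without Direct-78 mouse 65 (-0.88). JAK1 was also lower in S3-57 (-1.03, with each library left out) and S3-78 (-0.95, not without mice 55, -0.91, or 60, -0.82), and the estrogen receptor ESR1 was lower in S2-32 (-1.86). The ESR1 call was lost without control mice 75 (-1.54), 76 (-1.83) or 78 (-1.88) or S2-32 mice 37 (-1.98), 38 (-2.05), 39 (-1.89), 40 (-1.94) or 42 (-1.73). No regulator was a DEG in S1-57, S1-78 or S2-78, and whether any of them acts on the members was not tested.

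Genes that mark cell types were read beside the members, with VWF and THBD on more than 1 of the lists. The shares of all genes called higher and lower were 1.09% and 4.40% in S1-10, 11.9% and 17.2% in S1-32, 3.45% and 7.21% in S2-32, 0.363% and 1.22% in S1-57 and 5.71% and 18.7% in Direct-78. They were 0.998% and 0.816% in S1-78, 0.816% and 0.816% in S2-78, and 5.85% and 7.48% in S3-78. Of the 7 hepatocyte markers, of which transthyretin TTR was the most abundant, 1 was lower in Direct-78, 1 was higher in S1-32, and in the other 7 groups none was a DEG by edgeR. Their changes were positive for 6 of 7 in S1-10 (median 0.56) and S1-32 (0.28) and 5 of 7 in S2-32 (0.51), and negative for 5 of 7 in S3-57 (-0.24), 6 of 7 in S2-78 (-0.36) and S3-78 (-0.91) and 7 of 7 in Direct-78 (-0.68). In S1-57 (-0.08) and S1-78 (0.14) 3 and 4 of 7 were positive. Platelet markers (3 tested) gave 1 lower in S1-32, endothelial markers (5) 1 higher in S1-32, and macrophage markers (6) 3 higher in S1-32, 1 higher in S2-32, 1 lower in S1-57 and 1 lower in Direct-78. Stellate cell and fibroblast markers (6) gave 1 lower in S1-10, 2 higher in S2-32, 3 higher in S1-78 and 2 higher in S2-78, cholangiocyte markers (3) 1 higher and 1 lower in Direct-78, and erythroid markers (4) 1 lower in S3-78 and in Direct-78. Lymphocyte markers (5) gave 1 higher in S1-10 and S3-78 and 1 lower in Direct-78. Pancreatic acinar genes (7) were higher in S1-32 (1), S1-78 (4) and S2-78 (3), and, per 1000000 of the total count without the TMM factor, summed to over 1000 in S1-10 mouse 17 (4135), S1-32 mouse 19 (1894), S1-78 mouse 36 (25651) and S2-78 mouse 47 (14187). The S1-32 mouse 19 in that list is the one lowest in its group for F2, F5, F12, FGB, FGG, KNG1 and PLG.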

How the data were processed

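TempO-Seq counts of fixed liver from 78 male mice, 1 library per mouse, were grouped by the treatment in their labels. The authors' deposited count table holds raw counts per probed gene, matched with Bowtie to the probes, with mm10 named as the build. The deposited normalized and filtered tables hold a signal, which the authors made in Partek Flow 10.0.22.0524 by dividing the count plus 1 by a median-ratio factor of each library, for 68 libraries and, in the filtered table, 2205 genes. These relations were checked on the values, with the filtered values equal to the normalized ones.

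Raw counts of the 68 libraries and 2205 genes were fitted in R 4.3.3 with edgeR 4.0.16, with TMM factors, 13 groups in 1 quasi-likelihood model and 2-sided tests, and p-values were adjusted by Benjamini-Hochberg over all genes within a contrast. The fit was also run on simulated data, and no outcome of that run is given here. Log2 CPM used a prior count of 2 and ratios a pseudocount of 0.5, and permutations used scipy 1.17.1 under Python 3.11.15 with 100000 shuffles for the correlations. Alternatives were DESeq2 1.42.0, limma 3.58.1 on the authors' normalized values, other factors, gene filters and libraries, depth as a covariate, and each library left out. A limit from a count of 0 is 3 counts per library (95% confidence).

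The members and the gene lists were chosen with earlier results of these data known. All 10 members are named, and of each other list at most 4 DEGs per comparison with controls, those with the largest change. KNG1 has a close paralog, and the probe sequences were not at hand, so its counts are read as the table labels them.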

Additional observations from a re-analysis of the deposited data

Results flagged for a closer look

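In 18 of 120 sets of a member in a group of 4 to 6 libraries, 1 library lay far from the others, by the gap to its nearest neighbour divided by the range of the group and compared with Dixon's 95% limit. Chance alone gives about 1 in 20 for independent values. The share over all genes was not counted. Several members moved together within groups (FGB with PLG r 0.90), so the sets are not independent. Control-10 mouse 68 was far below its group for FGB (0.896), FGG (0.841), KNG1 (0.923) and PLG (0.934). S2-32 mouse 41 was far below its group for F2 (0.719), FGB (0.730), FGG (0.661), KLKB1 (0.821), KNG1 (0.724) and PLG (0.673). S1-32 mouse 19 was far below for F2 (0.910) and F5 (0.698), Control-78 mouse 86 for FGG (0.662) and PLG (0.713), S3-78 mouse 59 for FGB (0.843), S3-57 mouse 54 for PLG (0.741) and Control-32 mouse 75 for F12 (0.733). S1-10 mouse 15 was far above its group for FGB (0.733). The deviations thus gathered in a few libraries and took several members together. The 7 hepatocyte markers were also low in mouse 68 (15210 CPM, against 55710 to 70690 in the others of Control-10) and in mouse 41 (35870 CPM, against 76470 to 104700 in the others of S2-32), but not in mouse 19, the highest of S1-32 (84620 CPM). Their sum was the lowest of its group in S3-57 mouse 54 (26700 CPM), Control-32 mouse 75 (35800.0 CPM) and S1-10 mouse 15 (61610 CPM). It was not in Control-78 mouse 86 (65250 CPM) or S3-78 mouse 59 (42310 CPM). The cause was not tested.

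The change against controls differed from that at 10 weeks by more than the test allows in 12 cases, all lower than at 10 weeks. For Direct-78 the log2 differences were -3.93 for F2, -3.35 for F5, -3.42 for F11, -1.83 for F12, -1.65 for FGA, -5.86 for FGB, -2.43 for FGG, -2.05 for KLKB1, -1.47 for KNG1 and -2.70 for PLG. For F5 the difference was -2.02 in S3-57 and -1.90 in S1-78. The contrasts share the 10-week mice, so they are not separate evidence, and exposure time and library depth cannot be told apart where totals do not overlap.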

How the results depend on the processing

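Under the settings other than leaving out single libraries, single-member changes with an unadjusted p under 0.05 kept their direction and their side of the threshold in 589 fits, passed newly in 38, failed newly in 54 and turned sign in 7. With 1 library left out these numbers were 1038, 26, 82 and 0.

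All 7 reversals came with the log2 total count as a covariate: F2 1.82, KLKB1 0.78 and KNG1 0.37 in Direct-78 minus Control-78, F2 0.91, F5 0.021 and KLKB1 0.47 in Direct-78 minus S1-78, and KLKB1 0.070 in S3-78. With this covariate the number of members called was 0 in S1-32 and Direct-78 and 2 in S3-57. It was 0 in the differences from S1-10 for S3-57, Direct-78 and S1-78 and 2 in that for S2-32, and 0 in Direct-78 minus S1-78 and minus S3-78. In controls it was 1 at 32 weeks, 1 at 57 and 0 at 78. Where totals of the groups do not overlap, this term and the treatment cannot be told apart, and the cause was not tested.

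With median-ratio factors the number called was 4 in S1-10, 1 in S2-32, 2 in the S3-57 difference, 4 in Direct-78 minus S1-78 and 1 in Control-32. The shares of all genes were then 1.27% higher in S1-10, 8.80% lower in S2-32 and 2.90% lower in the S3-57 difference. They were 13.7% lower in Direct-78 minus S1-78, and 1.95% higher and 1.18% lower in Control-32. Upper-quartile factors gave 1 in S2-32, where 10.5% of all genes were lower. With all 78 libraries it was 1 in S1-10, 2 in S1-32, 1 in S3-78 and 9 in Direct-78. Fitting the 2 compared groups by themselves gave 1 in S3-78. DESeq2 called 6 in S1-10 and 1 each in S2-32, S3-57, S2-78 and S3-78, and limma 1 in S2-32. The shares of all genes called by DESeq2, by limma, with all 78 libraries and in fits of the 2 compared groups are not given. The cause of these shifts was not tested. No filter on low counts, and the test without a fold limit, left each number within 1.5 times that reported.

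These alternatives were chosen after seeing the data. Without the 4 libraries with pancreas genes over 1000 per 1000000 counts the number was 1 in S2-32, 0 in the S1-78 difference, 1 in Control-57 and 2 in Control-78. Without the 2 kept libraries under a squared Spearman correlation of 0.7 with the mean, it was 3 in S1-32, 1 in S2-78, 2 in Direct-78, 2 in the S3-57 difference, 3 in Direct-78 minus S1-78, 0 in Direct-78 minus S3-78, 1 in Control-32 and 2 in Control-78. Fewer libraries were then fitted, and the shares of all genes called in these fits are not given.

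With each library left out in turn, the number called ran from 0 to 3 in S1-10, 3 to 6 in S1-32, 0 to 3 in S2-32, 0 to 1 in S2-78, 0 to 1 in S3-78 and 2 to 7 in Direct-78. It ran from 0 to 2 in the S2-32 and S3-57 differences, 0 to 1 in the S1-78 difference, 3 to 8 in Direct-78 minus S1-78 and 0 to 1 in Direct-78 minus S3-78. In controls it ran from 0 to 1 at 32 weeks, 1 to 2 at 57 and 0 to 2 at 78. The shares of all genes called with a library left out are not given. The ratios past the threshold, 9 as reported, ran from 5 to 13, but the Direct-78 ratios could not pass with 1 library fewer. For the differences, the stopped groups, the ages and the ratios, these fits were also chosen after seeing the data.

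The 4 correlations kept their direction and side of the threshold on the authors' normalized values and in the 63 libraries of at least 1000000 counts. No paired analysis was possible because each mouse number belongs to 1 animal. In Direct-78, 3 libraries of 541245 to 699825 counts set the precision of each member.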
